A study of Homo sapiens with 3 samples.

Results

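The lambda interferons, the genes that sense RNA and switch them on, and the genes of their receptor and response were followed through single-cell RNA libraries of FaDu cells, a human line grown from a squamous carcinoma of the hypopharynx. The 10 genes were IFNL1, IFNL2, IFNL3, IFNB1, IFNLR1, CCL5, IFIH1, DDX58, IRF3 and IRF7, taken by symbol, and each had 1 row among the 58735 features of the deposited matrices. They were picked with levels and shares of positive cells from these same libraries in view, so their values are described here and not tested. Each of 3 groups had 1 library. The resistant TPF cinobufotalin library held cells of a FaDu subline selected for resistance to TPF (paclitaxel, cisplatin and 5-fluorouracil), given TPF and cinobufotalin. The resistant TPF library held the same subline given TPF alone. The FaDu cinobufotalin library held FaDu cells that were given cinobufotalin without TPF. Cinobufotalin is a bufadienolide, a steroid of toad venom. The sources used here do not give doses, times or whether the subline was 1 clone, and FaDu cells without any drug were not analysed here.

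Kept cells had 1000 or more unique molecular identifiers (UMIs, 1 per captured RNA molecule), 500 or more genes, and no more than 20% of UMIs from mitochondrial genes. This left 7525 resistant TPF cinobufotalin cells, 4862 resistant TPF cells and 6123 FaDu cinobufotalin cells, with 134802289, 135176387 and 165847771 UMIs. Median depth was 17867, 27920.5 and 24440 UMIs per cell. MALAT1, a nuclear RNA, had a median of 0.731% and 0.795% of UMIs in the resistant TPF cinobufotalin and resistant TPF cells but 0.0892% in FaDu cinobufotalin cells, so this library stood apart from the other two. Kept barcodes shared between libraries numbered 10 for the resistant pair, 13 for resistant TPF cinobufotalin with FaDu cinobufotalin, and 9 for resistant TPF with FaDu cinobufotalin. With 1 library per group, an effect of treatment or line and an effect of the library cannot be told apart, no p-value was computed, and every interval below is a 95% interval of counting error only. A level is given in CPM, the UMIs of a gene per 1000000 UMIs of the library. In CPM the median of 8143 genes lay at a log2 ratio of -0.06 for resistant TPF cinobufotalin over resistant TPF, 0.37 for resistant TPF over FaDu cinobufotalin and 0.31 for resistant TPF cinobufotalin over FaDu cinobufotalin. TMM scaling, which sets libraries level on their bulk of genes, moved these medians to -0.01, -0.20 and -0.21. The 9 epithelial markers (KRT5, KRT14, KRT17, KRT8, KRT18, EPCAM, CDH1, TP63 and SFN) were all measured. They summed to 3735, 4877 and 6638 CPM in the resistant TPF cinobufotalin, resistant TPF and FaDu cinobufotalin libraries. The largest parts were KRT17 (1298, 1823 and 2729 CPM) and KRT18 (1303, 1650 and 1872 CPM), while KRT5 was at 62.8, 76.2 and 151 CPM. KRT14, KRT8 and SFN were likewise highest in the FaDu cinobufotalin library. The rest of the list went the other way and was lowest there. These were CDH1 (170, 163 and 98.6 CPM), TP63 (44.3, 45.2 and 36.1 CPM) and EPCAM (171, 204 and 169 CPM).

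Lambda (type III) interferons are secreted proteins that epithelial cells release after sensing viral or misplaced nucleic acid. RIG-I (encoded by DDX58) and MDA5 (encoded by IFIH1) bind RNA in the cytosol and signal through MAVS to the kinases TBK1 and IKKε, which activate IRF3 and IRF7. Together with NF-κB these factors start transcription of IFNB1 and the IFNL genes, and of the chemokine gene CCL5. The secreted lambda interferons bind a receptor of IFNLR1 and IL10RB, which acts through JAK kinases and IRF9 on interferon-stimulated genes.

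The 3 IFNL genes lie in a row on chromosome 19 of hg38 (GENCODE release 29). IFNL3 is at chr19:39243553-39245129 on the minus strand, IFNL2 at chr19:39268514-39270092 and IFNL1 at chr19:39296325-39298673, both on the plus strand. The gaps are 23384 bases between IFNL3 and IFNL2, and 26232 bases between IFNL2 and IFNL1. IFNB1 is at chr9:21077105-21077963, IFNLR1 at chr1:24154157-24187959, IFIH1 at chr2:162267079-162318703, DDX58 at chr9:32455705-32526324, CCL5 at chr17:35871491-35880793, IRF3 at chr19:49659569-49665875 and IRF7 at chr11:612553-615999, each on the minus strand. Spliced transcripts of IFNL2 and IFNL3 were identical at 719 of 734 aligned bases, or 98.0%, while the IFNL1 and IFNL2 transcripts were identical at 79.8%. No window of 150 bases of IFNL2 (0 of 588) was found unaltered in IFNL3, but 53 of 648 windows of 90 bases were, so some short reads cannot be placed between these genes and their separate counts are uncertain.

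Promoter sequences, 250 bases before to 50 bases after the start, come from RefSeq on GRCh38.p14, and 7 of the 10 genes had one: IFNL1, IFNL2, IFNL3, IFNB1, IFNLR1, IFIH1 and DDX58 (listed as RIGI), but not CCL5, IRF3 or IRF7. The sequences shown are those of a lambda interferon from each branch of the family, of IFNB1 and of the sensor gene that differed most between cells with and without IFNL RNA. Each runs 5′ to 3′ on its gene's strand, and capitals mark matches to the core of the interferon-stimulated response element (ISRE, the letters GAAA, any 2 bases and GAAA), which IRF proteins bind, or to the NF-κB consensus, searched on both strands. IFNL1 spans chr19:39296157-39296456, IFNL2 chr19:39268146-39268445, IFNB1 chr9:21077893-21078192 (minus strand) and IFIH1 chr2:162318635-162318934 (minus strand).
IFNL1: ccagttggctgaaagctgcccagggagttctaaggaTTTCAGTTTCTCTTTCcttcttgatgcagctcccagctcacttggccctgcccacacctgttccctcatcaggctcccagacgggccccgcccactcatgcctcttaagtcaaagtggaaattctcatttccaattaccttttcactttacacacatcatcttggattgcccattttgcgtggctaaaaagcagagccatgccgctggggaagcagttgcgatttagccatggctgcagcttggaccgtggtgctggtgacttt
IFNL2: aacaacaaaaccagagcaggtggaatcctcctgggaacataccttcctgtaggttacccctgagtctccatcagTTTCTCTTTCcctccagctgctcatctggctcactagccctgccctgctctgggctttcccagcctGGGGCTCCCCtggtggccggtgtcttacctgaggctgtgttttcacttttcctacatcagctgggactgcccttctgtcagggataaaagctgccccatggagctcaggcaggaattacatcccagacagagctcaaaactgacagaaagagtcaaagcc
IFNB1: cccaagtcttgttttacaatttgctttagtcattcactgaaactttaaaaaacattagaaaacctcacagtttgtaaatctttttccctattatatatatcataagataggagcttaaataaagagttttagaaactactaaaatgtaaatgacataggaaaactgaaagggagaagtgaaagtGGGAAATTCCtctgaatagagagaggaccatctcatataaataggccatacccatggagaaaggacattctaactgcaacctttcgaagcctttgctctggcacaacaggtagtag
IFIH1: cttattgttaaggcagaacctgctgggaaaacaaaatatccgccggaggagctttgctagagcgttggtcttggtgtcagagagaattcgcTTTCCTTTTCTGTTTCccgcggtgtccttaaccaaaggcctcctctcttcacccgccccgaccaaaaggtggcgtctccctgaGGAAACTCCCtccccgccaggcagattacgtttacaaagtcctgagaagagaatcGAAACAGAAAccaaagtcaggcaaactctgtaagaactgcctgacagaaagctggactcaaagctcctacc

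In IFNL1 the capitals are a pair of overlapping ISRE cores at positions -214 to -199 from the start, and no NF-κB match was found. In IFNL2 they are an ISRE core at -176 to -167 and an NF-κB match at -110 to -101. IFNL3, from its upstream start, differed from IFNL2 at 1 of 300 bases and held both matches at the same positions. The IFNB1 capitals are an NF-κB match at -66 to -57, and IFNB1 held no run of the exact ISRE core letters. The IFIH1 promoter held 3 ISRE cores, of which the first pair overlap, and an NF-κB match at -76 to -67. DDX58 held an NF-κB match at -76 to -67, and IFNLR1 held neither motif. An AP-1 site (TGANTCA) was in none of the 7. Among 35116 promoters of the same length, 3.57% held an ISRE core, 11.3% an NF-κB match and 7.71% an AP-1 site. A match is a run of letters and does not show binding. Looser forms of the motifs were not searched, so lack of a match does not show lack of a site.

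Lambda interferon RNA was present in all 3 libraries, at like levels in CPM, and most of it was IFNL1. IFNL1 stood at 62.4 CPM (61.1 to 63.7) in the resistant TPF cinobufotalin library, 67.3 CPM (65.9 to 68.7) in the resistant TPF library and 72.2 CPM (70.9 to 73.5) in the FaDu cinobufotalin library. IFNL3 was at 7.66, 7.04 and 8.32 CPM and IFNL2 at 4.90, 4.71 and 6.14 CPM in the same order of libraries. The sum of the 3 genes was 74.9 CPM in the resistant TPF cinobufotalin library, 79.0 CPM in the resistant TPF library and 86.7 CPM in the FaDu cinobufotalin library. On this scale the order put the FaDu cinobufotalin library highest, but the steps were small. The log2 ratio of the sum was -0.08 (-0.12 to -0.04) for resistant TPF cinobufotalin over resistant TPF, -0.13 (-0.17 to -0.10) for resistant TPF over FaDu cinobufotalin and -0.21 (-0.25 to -0.17) for resistant TPF cinobufotalin over FaDu cinobufotalin.

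The direction of both ratios over FaDu cinobufotalin depended on how cells were weighted and chosen. With every cell thinned to 5000 UMIs, so that deep cells no longer counted for more, they were 0.40 and 0.18. In cells with MALAT1 at 0.3% to 1% of UMIs (3074, 1913 and 1140 cells) they were 1.08 and 0.75. With TMM scaling they were -0.70 and -0.73. The ratio of the resistant pair stayed below 0 on thinning, at -0.22, and turned to 0.12 when the 10 cells with the most lambda UMIs were left out of each library.

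IFNB1, the type I interferon that shares this induction route, was far less abundant in UMIs, with 133, 257 and 252 in the resistant TPF cinobufotalin, resistant TPF and FaDu cinobufotalin libraries. Its levels were 0.987 CPM (0.826 to 1.17), 1.90 CPM (1.68 to 2.15) and 1.52 CPM (1.34 to 1.72). The log2 ratio of resistant TPF cinobufotalin over resistant TPF was -0.95 (-1.26 to -0.64), and it was -0.16 once 10 cells of each library were left out. Those 10 cells held 45.1% of IFNB1 UMIs in the resistant TPF cinobufotalin library, 68.1% in the resistant TPF library and 76.2% in the FaDu cinobufotalin library. Of 22 interferon ligand genes, 8 had no UMI in any library: the alpha interferons IFNA7, IFNA8, IFNA10, IFNA14, IFNA16, IFNA17 and IFNA21, and IFNG. IFNL4 had 0 UMIs in the resistant TPF cinobufotalin library, which allows a level of up to 0.0223 CPM, and 1 and 3 UMIs in the resistant TPF and FaDu cinobufotalin libraries. IFNL1, IFNL2 and IFNL3 were the 3 ligands at a mean of at least 5 CPM.

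**Figure D1:**
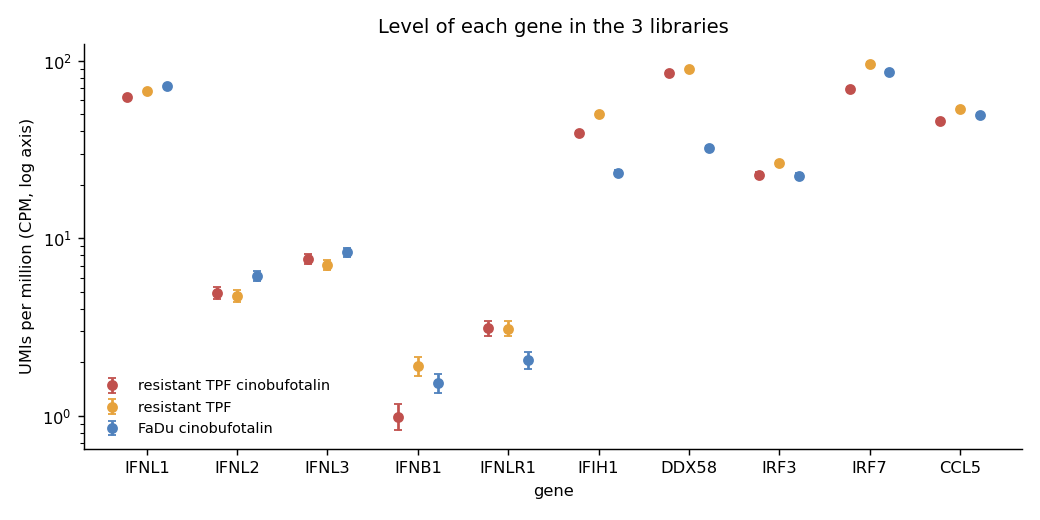
Level of the 10 genes in the 3 libraries, in CPM on a log axis. Points are the summed UMIs of all kept cells of 1 library and bars their 95% exact Poisson interval. IFNL1 lies between 62.4 and 72.2 CPM in all 3, while DDX58 and IFIH1 lie lowest in the FaDu cinobufotalin library.

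Only a minority of cells held lambda interferon RNA. At least 1 UMI of IFNL1, IFNL2 or IFNL3 was found in 887 resistant TPF cinobufotalin cells, 516 resistant TPF cells and 945 FaDu cinobufotalin cells, or 11.8% (11.1 to 12.5), 10.6% (9.76 to 11.5) and 15.4% (14.5 to 16.4). Such a share depends on depth. Thinned to 5000 UMIs, which left out 571, 205 and 144 shallower cells, the shares were 7.69% (7.08 to 8.34), 6.08% (5.41 to 6.80) and 8.11% (7.43 to 8.83). The intervals of the resistant TPF cinobufotalin and FaDu cinobufotalin libraries then overlapped, and that of the resistant TPF library lay below both. In cells with MALAT1 at 0.3% to 1% the shares were 9.76%, 9.72% and 10.5%, and all 3 intervals overlapped. No cell type without the gene was present to measure free RNA, and barcodes without cells were not analysed here. The share of cells with 2 or more lambda UMIs was 7.68%, 7.03% and 10.1%. The part of free RNA in these shares was not tested.

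IFNL1 was detected in 11.2%, 10.1% and 14.6% of resistant TPF cinobufotalin, resistant TPF and FaDu cinobufotalin cells, IFNL3 in 2.74%, 2.49% and 3.38%, and IFNL2 in 2.14%, 1.85% and 2.53%. IFNB1 was detected in 63, 67 and 49 cells, or 0.837%, 1.38% and 0.800%. The sensors and factors were far more widespread. DDX58 was found in 57.0%, 70.7% and 45.0% of cells and IRF7 in 53.9%, 73.0% and 69.7%. IFIH1 was found in 35.4%, 51.3% and 37.6% and IRF3 in 30.7%, 47.8% and 41.2%. CCL5, at levels close to those of IFNL1, was in 13.4%, 13.9% and 16.8% of cells. IFNLR1 was in 5.36%, 8.10% and 5.26%.

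**Figure D2:**
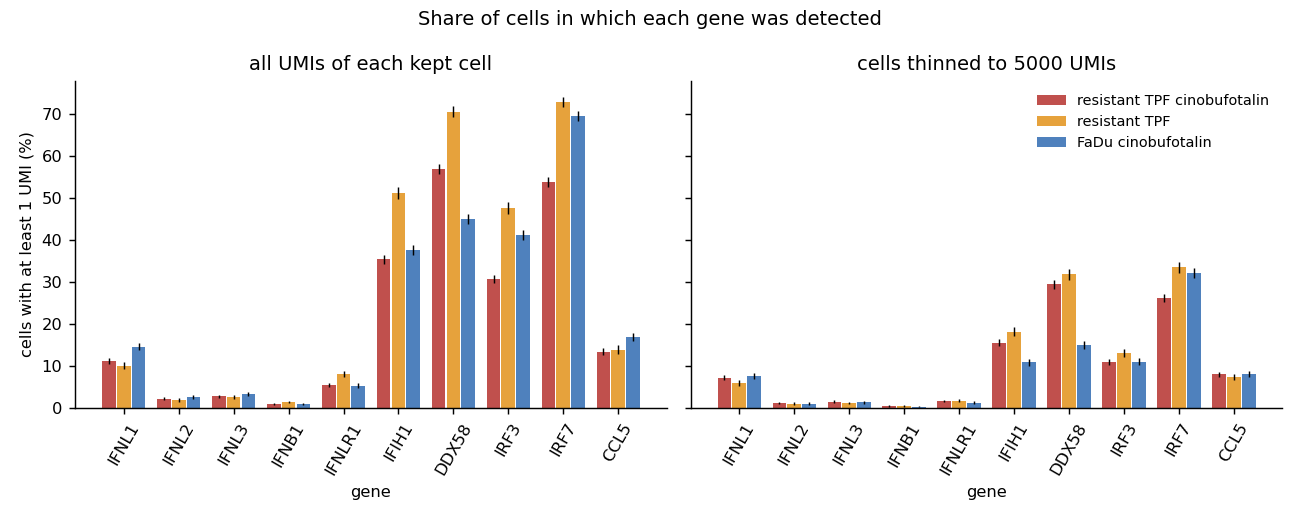
Share of kept cells with at least 1 UMI of each gene, from all UMIs (left) and after thinning each cell to 5000 UMIs (right), with 95% Clopper-Pearson intervals. The sensors and IRF genes are the tall bars, and IFNL1 and CCL5 stay between 5.84% and 8.15% on thinning.

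The few positive cells differed widely in output. The highest cell held 251 IFNL1 UMIs in the resistant TPF cinobufotalin library, 595 in the resistant TPF library and 767 in the FaDu cinobufotalin library, while the median positive cell held 3, 4 and 3. The 10 cells with the most IFNL1 held 20.2%, 30.1% and 29.4% of all IFNL1 UMIs, and 59, 29 and 40 cells held 50% of them. The top 1% of cells held 55.7%, 63.7% and 58.1%. In its top cell the sum of the 3 IFNL genes made up 1.71%, 4.51% and 0.896% of all UMIs of that cell. IFNL2 and IFNL3 were more uneven still, with 43.9%, 62.0% and 58.1% of IFNL2 UMIs and 44.7%, 50.1% and 49.9% of IFNL3 UMIs in 10 cells. CCL5 was less uneven than IFNL1, with 15.7%, 17.8% and 21.4% in 10 cells. The same measure for genes spread over many cells was 3.81%, 3.95% and 2.86% for IFIH1 and 1.61%, 2.47% and 1.79% for IRF7.

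**Figure D3:**
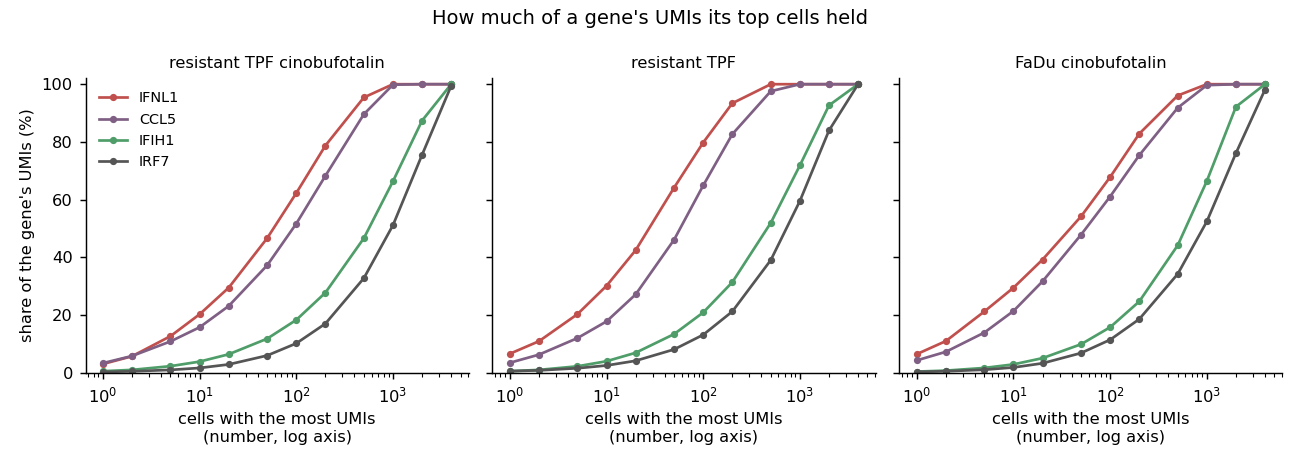
Share of the UMIs of IFNL1, CCL5, IFIH1 and IRF7 held by the cells with the most UMIs of each gene, for rising numbers of cells on a log axis, 1 panel per library. At 10 cells the IFNL1 line is the highest of the 4, with 20.2%, 30.1% and 29.4%, and the IRF7 line the lowest.

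Most cells with IFNL2 or IFNL3 also held IFNL1, while most cells with IFNL1 held neither of the others. Among cells with IFNL2 or IFNL3, IFNL1 was found in 83.3% of 281 resistant TPF cinobufotalin cells (78.4 to 87.4), 82.2% of 152 resistant TPF cells (75.2 to 88.0) and 82.0% of 272 FaDu cinobufotalin cells (76.9 to 86.4), against 8.37%, 7.73% and 11.5% of the remaining cells. Among cells with IFNL2, IFNL3 was found in 53.4%, 65.6% and 58.1%, against 1.63%, 1.30% and 1.96% of cells without IFNL2. IFNL2 and IFNL3 are alike in sequence, and the part of read placement between them in this overlap was not tested. IFNL1 alone was seen in 68.3%, 70.5% and 71.2% of lambda-positive cells, and all 3 genes in 83, 57 and 88 cells. Of the cells with IFNB1, 79.4% (50 of 63), 58.2% (39 of 67) and 85.7% (42 of 49) also held a lambda interferon UMI, against 11.2%, 9.95% and 14.9% of cells without IFNB1. Read the other way, IFNB1 was seen in only 5.64%, 7.56% and 4.44% of lambda-positive cells.

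Lambda UMIs per cell were grouped as 0, 1, 2 to 4, 5 to 19 and 20 or more. The last group held 118 resistant TPF cinobufotalin cells, 120 resistant TPF cells and 151 FaDu cinobufotalin cells, or 1.57%, 2.47% and 2.47% of cells, and 67.7%, 84.0% and 77.8% of lambda UMIs. IFNL1 made up 88.0% to 89.97% of lambda UMIs in the groups from 1 to 19 UMIs and 80.5%, 84.3% and 81.8% in cells with 20 or more. The top group held 75 of 133, 188 of 257 and 230 of 252 IFNB1 UMIs in the resistant TPF cinobufotalin, resistant TPF and FaDu cinobufotalin libraries. Its level there was 25.4 CPM (19.98 to 31.8), 50.2 CPM (43.3 to 57.9) and 29.6 CPM (25.9 to 33.6), against 0.138, 0.276 and 0.0529 CPM in cells with no lambda UMI. FaDu cinobufotalin cells in the top group were also deeper, with a median of 38103 UMIs, against 24026 in cells with none, and lower in MALAT1, with 0.0232% against 0.104%. In the resistant TPF cinobufotalin and resistant TPF libraries, MALAT1 was 0.757% and 0.935% in the top group, against 0.751% and 0.796% in cells with none. Median depth there was 20040 and 30525 UMIs, against 17801.5 and 27717. The groups below the top differed from it in the resistant TPF cinobufotalin library, with MALAT1 at 0.560%, 0.534% and 0.421% from 1 to 19 lambda UMIs. Over all lambda-positive cells the median MALAT1 was 0.549% in that library and 0.778% in the resistant TPF library. The part of depth and MALAT1 in these differences was not tested.

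CCL5, the chemokine RANTES that draws T cells and monocytes, was the gene of the 10, besides IFNB1 and the IFNL genes, that differed most between cells with and without lambda RNA. Its library levels were close, at 45.7, 53.6 and 49.5 CPM in the resistant TPF cinobufotalin, resistant TPF and FaDu cinobufotalin libraries. Its log2 ratio of resistant TPF over FaDu cinobufotalin was 0.11, and -0.45 with TMM scaling. Within libraries it was at 559, 683 and 297 CPM in cells with 20 or more lambda UMIs and at 21.1, 22.4 and 23.8 CPM in cells with none. Even cells with a single lambda UMI had 67.2, 66.4 and 71.7 CPM. CCL5 was detected in 51.6% (48.3 to 55.0), 53.3% (48.9 to 57.7) and 50.5% (47.2 to 53.7) of lambda-positive cells, against 8.33%, 9.23% and 10.6% of lambda-negative cells. On thinning to 5000 UMIs these were 41.9%, 46.6% and 36.5%, against 5.17%, 4.82% and 5.64%. CCL5 lies within an annotated antisense gene, AC015849.1, which had 0.690, 0.414 and 0.283 CPM.

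In CPM, the cytosolic RNA sensors were the members that differed most between the resistant libraries and the FaDu cinobufotalin library. With TMM scaling this order did not hold, as IFNL2 was at -0.95 for resistant TPF and -0.85 for resistant TPF cinobufotalin over FaDu cinobufotalin. DDX58 was at 85.7 CPM (84.2 to 87.3) in the resistant TPF cinobufotalin library, 89.9 CPM (88.3 to 91.5) in the resistant TPF library and 32.1 CPM (31.3 to 33.0) in the FaDu cinobufotalin library. IFIH1 was at 39.1 CPM (38.05 to 40.2), 50.02 CPM (48.8 to 51.2) and 23.4 CPM (22.7 to 24.2). The log2 ratio of resistant TPF over FaDu cinobufotalin was 1.48 (1.44 to 1.53) for DDX58 and 1.09 (1.04 to 1.15) for IFIH1. That of resistant TPF cinobufotalin over FaDu cinobufotalin was 1.42 (1.37 to 1.46) for DDX58 and 0.74 (0.68 to 0.80) for IFIH1. Of the 10 genes, 6 had a mean of at least 10 CPM, the level above which genes were counted. Of these 6, 2 were at least 2-fold higher in resistant TPF than in FaDu cinobufotalin cells, where 13.2% of 8143 genes were, and 1 in resistant TPF cinobufotalin than in FaDu cinobufotalin cells, where 13.3% were. In both pairs 0 members were at least 2-fold lower, against 0.344% and 0.761% of genes. With TMM scaling DDX58 was at 0.91 and 0.89 and IFIH1 at 0.53 and 0.22 in these pairs, so that none of the 6 was past 2-fold. IFNB1, which was too low to be counted, was at -0.25 and -1.14 with TMM scaling. Between the resistant libraries 0 of 6 were at least 2-fold higher and 0 lower, against 0.0123% of genes in each direction. DDX58 was there at -0.07 and IFIH1 at -0.36 (-0.41 to -0.30).

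Within each library both sensors were higher in lambda-positive cells. IFIH1 was at 189, 252 and 55.0 CPM in resistant TPF cinobufotalin, resistant TPF and FaDu cinobufotalin cells with 20 or more lambda UMIs, and at 29.6, 38.01 and 20.04 CPM in cells with none. DDX58 was at 231, 279 and 48.1 CPM with 20 or more and at 74.9, 77.0 and 29.6 CPM with none. The step was smallest in the FaDu cinobufotalin library for both genes. IFIH1 was detected in 62.3%, 80.0% and 56.9% of lambda-positive cells, against 31.8%, 47.9% and 34.1% of lambda-negative cells. DDX58 was detected in 72.2%, 89.1% and 62.0%, against 55.0%, 68.5% and 41.9%. DHX58, the third RIG-I-like receptor, which regulates the other two, was at 18.6, 27.8 and 12.5 CPM in the top group, against 5.21, 6.42 and 7.03 CPM in cells with none.

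IRF3 and IRF7, the factors that the sensors activate, differed less than the sensors between lambda-positive and lambda-negative cells. Both are controlled by phosphorylation, which RNA does not measure, and IRF7 is itself an interferon-stimulated gene. IRF3 was at 22.7, 26.5 and 22.6 CPM in the resistant TPF cinobufotalin, resistant TPF and FaDu cinobufotalin libraries, and IRF7 at 69.6, 96.4 and 86.9 CPM. In resistant TPF cinobufotalin over resistant TPF the log2 ratio was -0.47 (-0.51 to -0.43) for IRF7 and -0.22 (-0.29 to -0.15) for IRF3. In resistant TPF over FaDu cinobufotalin IRF7 was at 0.15 and IRF3 at 0.23, and TMM scaling turned these to -0.42 and -0.34. In cells with over cells without lambda UMIs, IRF3 was at 0.07 (-0.07 to 0.22), -0.01 (-0.16 to 0.14) and 0.18 (0.07 to 0.29), and IRF7 at -0.04 (-0.12 to 0.05), -0.16 (-0.24 to -0.08) and 0.21 (0.15 to 0.27). Both were thus somewhat higher in lambda-positive cells of the FaDu cinobufotalin library. The median there of all 11862 genes at 2 CPM or more in every library was -0.15. IRF3 overlaps BCL2L12 on the other strand over 734 bases. BCL2L12 was at 88.2, 86.2 and 88.7 CPM, so the level of IRF3 is uncertain where reads were counted without regard to strand, and the sources used here do not say.

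The lambda receptor was scarce in these cells. IFNLR1, the chain that only lambda interferons use, was at 3.12 CPM (2.82 to 3.43) in the resistant TPF cinobufotalin library, 3.0997 CPM (2.81 to 3.41) in the resistant TPF library and 2.05 CPM (1.84 to 2.28) in the FaDu cinobufotalin library. Positive cells held 1 UMI in 96.0%, 93.7% and 94.7% of cases. The log2 ratios over FaDu cinobufotalin were 0.60 (0.39 to 0.81) for resistant TPF cinobufotalin and 0.60 (0.39 to 0.81) for resistant TPF, and 0.08 and 0.03 with TMM scaling. Its share of positive cells on thinning was 1.64%, 1.67% and 1.24%. In cells with over cells without lambda UMIs IFNLR1 was at -0.50 (-0.99 to -0.04), -0.28 (-0.78 to 0.19) and -0.30 (-0.73 to 0.11), and only the first interval lay wholly below 0. Lambda-positive cells held just 43, 41 and 58 IFNLR1 UMIs. The median of all 11862 genes at 2 CPM or more in every library was -0.21, -0.07 and -0.15, inside each interval. Each ratio lay below its median, but the intervals rest on few UMIs and are wide. Whether IFNLR1 differed from genes at large therefore cannot be told. IL10RB, the chain shared with the receptors of IL-10 and IL-22, was at 9.55, 10.2 and 8.90 CPM.

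**Figure D4:**
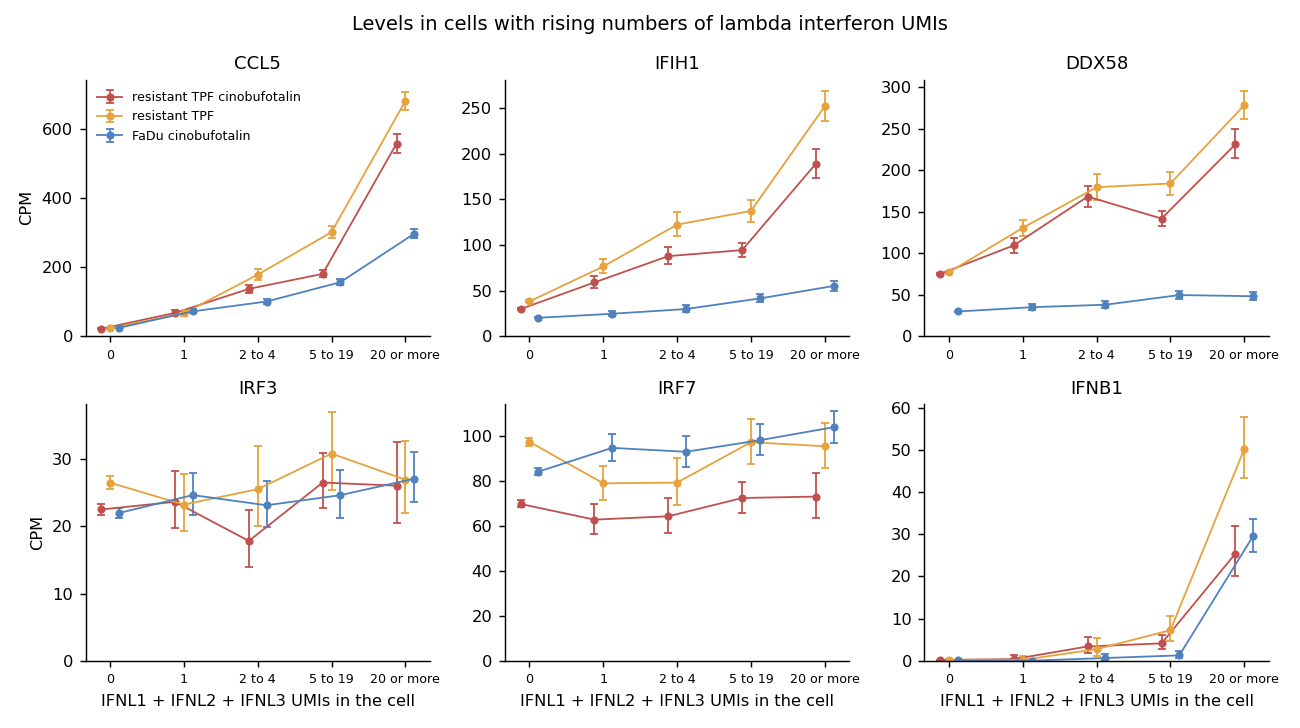
Levels of 6 genes in cells grouped by their number of lambda interferon UMIs, in CPM on linear axes from 0, with 95% exact Poisson intervals, 1 line per library. CCL5, IFIH1, DDX58 and IFNB1 are higher in cells with 20 or more lambda UMIs than in cells with none, with DDX58 at 48.1 against 29.6 CPM in the FaDu cinobufotalin library. Not every step between neighbouring groups is upward. IRF3 and IRF7 differ less, with IRF7 at 104 against 84.3 CPM in the FaDu cinobufotalin library.

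Across all genes, lambda-positive cells were then compared with lambda-negative cells of the same library, with lambda UMIs left out of the totals. Of 11862 genes at 2 CPM or more in every library, 41 were at least 2-fold higher in the resistant TPF cinobufotalin library (0.346%), 67 in the resistant TPF library (0.565%) and 16 in the FaDu cinobufotalin library (0.135%), and 15, 7 and 36 were at least 2-fold lower (0.126%, 0.059% and 0.303%). Thinned to 5000 UMIs, the counts of genes at least 2-fold higher were 95, 216 and 79, and in cells with MALAT1 at 0.3% to 1% that of the FaDu cinobufotalin library was 86. Thinning left 535, 283 and 485 lambda-positive cells of 5000 UMIs each. Genes near 2 CPM then rest on few UMIs, and the counts take no account of intervals. The part of counting error in these larger counts was not tested. Of the 6 members in this count, CCL5, IFIH1 and DDX58 were past 2-fold in the resistant TPF cinobufotalin and resistant TPF libraries, and CCL5 was in the FaDu cinobufotalin library. The log2 ratio of CCL5 was 3.23 (3.16 to 3.31), 3.69 (3.62 to 3.76) and 2.67 (2.60 to 2.73). For IFIH1 it was 1.72, 1.90 and 0.88, and for DDX58 1.03, 1.29 and 0.51. In FaDu cinobufotalin cells with MALAT1 at 0.3% to 1% the ratios were 3.30 for CCL5, 1.30 for IFIH1 and 1.09 for DDX58. The ratios describe cells that share a library, since cells are not replicates.

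The 12 genes whose pattern was most like that of the IFNL genes, ranked by the lowest of the 3 ratios, began with CCL5. Next was HRH2, the histamine H2 receptor, at 2.09, 2.48 and 1.68 in the resistant TPF cinobufotalin, resistant TPF and FaDu cinobufotalin libraries. Interferon-stimulated genes among the 12 were OASL, an antiviral 2′-5′-oligoadenylate synthetase-like protein (1.75, 2.07 and 1.53), and IFIT2, which binds viral RNA (1.95, 2.22 and 1.28). The chemokines CXCL11 (1.40, 1.55 and 1.29) and CXCL10 (1.35, 1.25 and 1.96), both ligands of CXCR3, were on the list, as was CSF3, the growth factor of neutrophils (1.24, 1.45 and 0.99). Also among the 12 were NEURL3 (1.66, 2.02 and 1.31), the ETS-family repressor ETV3 (1.47, 1.87 and 1.11), PRR15 (1.32, 1.42 and 1.10) and RPS6KC1 (1.52, 1.87 and 1.00). Of the genes named here, CXCL10 alone had its highest ratio in the FaDu cinobufotalin library. Among 20 interferon-stimulated genes, 5, 5 and 2 were at least 2-fold higher in lambda-positive cells, and the list's median log2 ratio was 0.22, 0.21 and 0.16, against -0.21, -0.07 and -0.15 for all 11862 genes.

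**Figure D5:**
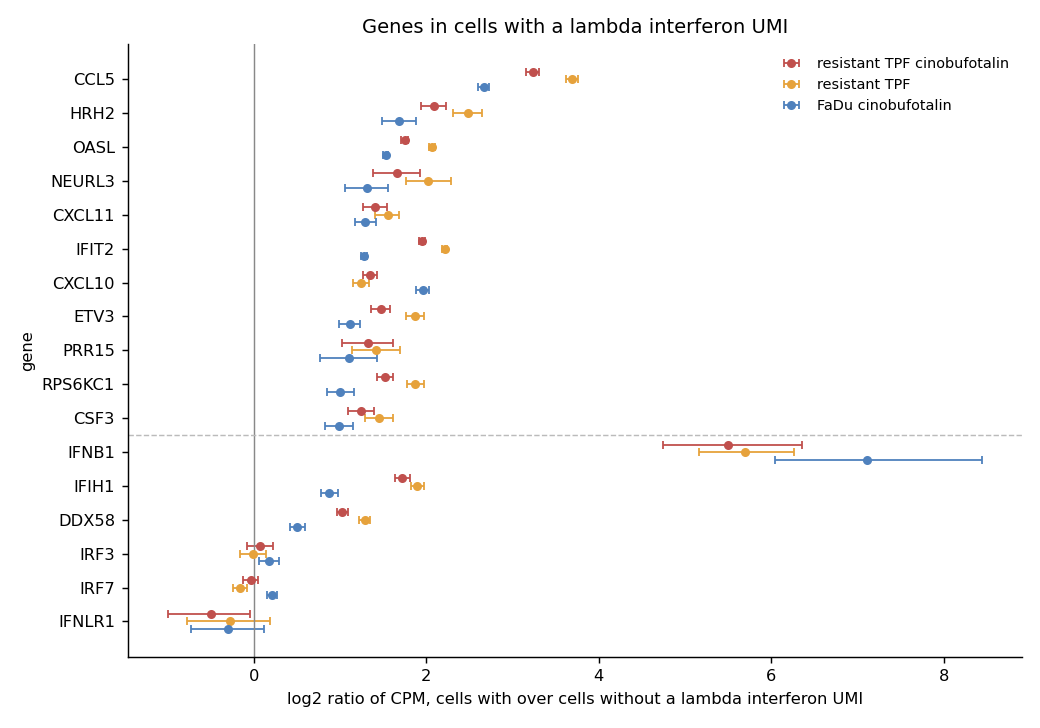
Log2 ratio of CPM in cells with over cells without a lambda interferon UMI, within each library, with 95% intervals, for genes among the 12 most alike (above the dashed line) and 6 of the 10 genes studied (below). CCL5 lies at 2.67 to 3.69, IFNB1 at 5.50 to 7.11, IRF3 and IRF7 lie between -0.16 and 0.21, and IFNLR1 between -0.50 and -0.28.

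Other genes of the pathway were counted at 1.5-fold among those at a mean of at least 5 CPM. Of 11 measured sensors and adaptors, 6 were higher and 0 lower in resistant TPF over FaDu cinobufotalin, where 36.7% of 10317 genes were higher and 1.92% lower. Their median log2 ratio was 0.73, against 0.40 for all genes counted. TMM scaling moved every ratio over FaDu cinobufotalin by -0.57 for resistant TPF and -0.52 for resistant TPF cinobufotalin. MB21D1 (CGAS), the sensor of cytosolic DNA, was highest at 1.67, followed by DDX58, IFIH1 and IFI16 (0.92). In resistant TPF cinobufotalin over FaDu cinobufotalin 6 were higher and 1 lower, against 34.4% and 4.08% of genes. The TLR3 adaptor gene TICAM1 was the lower one, at -0.75. With TMM scaling, resistant TPF over FaDu cinobufotalin had MB21D1 at 1.10 and DDX58 at 0.91. IFIH1 was then at 0.53, IFI16 at 0.35, DHX58 at -0.60 and TICAM1 at -0.91, so the counts over FaDu cinobufotalin depend on the scaling. In resistant TPF cinobufotalin over resistant TPF 0 of 11 passed in either direction, against 0.0775% of genes higher and 0.262% lower.

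Of 9 kinase and TRAF genes, 6 were higher in resistant TPF over FaDu cinobufotalin, with CHUK at 0.94 and TANK at 0.88. In resistant TPF cinobufotalin over FaDu cinobufotalin 2 were higher. With TMM scaling CHUK and TANK were at 0.37 and 0.31 in the first of these pairs, short of 1.5-fold, and IKBKB was at -0.63. The counts in this paragraph therefore depend on the scaling. TBK1 was at 0.48 in both pairs, and at -0.09 and -0.040 with TMM scaling. Of 11 transcription factor genes 7 and 5 were higher in these pairs, with JUN at 2.01 and 1.81, NFKB2 at 0.92 and 0.58, NFKB1 at 0.91 and 1.06 and ATF2 at 0.91 and 0.94. Of 8 receptor and signalling genes 3 and 3 were, among them IFNAR1 (0.89 and 0.75) and JAK1 (0.88 and 0.83). Of 9 genes that restrain the pathway 2 and 2 were, the deubiquitinase gene CYLD (1.36 and 1.25) and SOCS1 (0.92 and 0.73). None of these 4 lists had a member past 1.5-fold in resistant TPF cinobufotalin over resistant TPF. Read against the shares of all genes above, the counts for the receptor list were near the background in both pairs. The counts for the restraint list in both pairs, and for the kinase list in resistant TPF cinobufotalin over FaDu cinobufotalin, were below it.

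Of 13 measured chemokine and cytokine genes, 3 were higher in resistant TPF over FaDu cinobufotalin, and 2 higher and 1 lower in resistant TPF cinobufotalin over FaDu cinobufotalin. The counts of higher genes lay below the background of 36.7% and 34.4%. IL32 was at 1.60 and 1.18 and IL1B at -0.37 and -0.71. Of 20 interferon-stimulated genes 2 were higher and 2 lower in resistant TPF over FaDu cinobufotalin, and 2 higher and 6 lower in resistant TPF cinobufotalin over FaDu cinobufotalin. Against the same background, with 1.92% and 4.08% of all genes lower, this list held fewer higher genes and more lower genes in both pairs. HERC5 was at 1.08 and 1.17 and BST2 at -1.09 and -1.17. In resistant TPF cinobufotalin over resistant TPF 0 were higher and 1 lower, IFIT1, at -0.59 (115 against 174 CPM).

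Markers of other cell types were low but not all absent. CD68 was at 3.54, 4.53 and 4.57 CPM and COL1A1 at 3.23, 3.62 and 1.96 CPM in the resistant TPF cinobufotalin, resistant TPF and FaDu cinobufotalin libraries. None of 8 immune, 6 plasmacytoid dendritic, 6 fibroblast and 4 endothelial markers reached a mean of 5 CPM, and MS4A1, LILRA4, TLR9, COL1A2 and LUM had 0 UMIs in all libraries. In lambda-positive cells the immune markers summed to 5.77 CPM (4.73 to 6.97), 7.20 CPM (5.93 to 8.65) and 7.50 CPM (6.60 to 8.48), against 5.14, 6.51 and 6.93 CPM in lambda-negative cells. Plasmacytoid dendritic markers summed to 1.76, 1.40 and 0.717 CPM, against 2.70, 2.37 and 0.861 CPM. The 9 epithelial markers summed to 3996, 5902 and 7551 CPM in lambda-positive cells, against 3693, 4742 and 6408 CPM in lambda-negative cells.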

How the data were processed

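The libraries were made with the 10x 3′ kit (version 3.1), per the labels, and the deposited values are raw UMI counts per gene and cell from Cell Ranger 7.0 on hg38, per the submitters' processing notes. The sources used here do not state strand use, intron counting or annotation. All 58735 feature identifiers are in GENCODE release 29, which gave the coordinates. Low-quality barcodes were left out by UMIs, genes and mitochondrial share, which kept 7525 of 8888 resistant TPF cinobufotalin, 4862 of 6081 resistant TPF and 6123 of 6888 FaDu cinobufotalin barcodes. No doublet caller was run, and cells over 2 times the median depth were left out as an alternative.

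UMIs were summed over cells and divided by the total to give CPM. Levels carry exact Poisson intervals, shares Clopper-Pearson intervals and log2 ratios the interval of a binomial split of the UMIs. Intervals cover counting error only. The ratio calculation was tested on simulated independent Poisson counts. These do not hold the crowding of UMIs into few cells, so they do not test the intervals of such uneven genes. For counts of genes, a mean of at least 10 CPM and 2-fold (pathway lists 5 CPM and 1.5-fold) were used, and within libraries at least 2 CPM in each. TMM factors came from edgeR 4.0.16 in R 4.3.3, and other steps used pandas 2.3.3, scipy 1.17.1 and numpy 2.4.6 under Python 3.11.15. With 1 library per group no model was fitted. Genes named besides the 10 were the 12 with the highest lowest ratio of cells with over cells without lambda UMIs, and members of the lists, and results for some of these genes are not reported here. The members and lists were chosen with earlier results of these data known. Alternatives were thinning, cell filters, TMM, totals without mitochondrial and ribosomal genes, other CPM minimums and, chosen after seeing the data, cells with MALAT1 at 0.3% to 1% of UMIs.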

Additional observations from a re-analysis of the deposited data

Results flagged for a closer look

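Lambda interferon UMIs were also present in the barcodes that were left out of every comparison for low depth, few genes or a high mitochondrial share. Their summed level was 62.2 CPM (53.2 to 72.2) in 1363 resistant TPF cinobufotalin barcodes, 30.8 CPM (25.4 to 37.0) in 1219 resistant TPF barcodes and 74.3 CPM (61.6 to 89.0) in 765 FaDu cinobufotalin barcodes, above the level that a count of 0 allows. Kept cells had 74.9, 79.0 and 86.7 CPM. Of the left-out barcodes 51, 34 and 20 held a lambda UMI, and their median mitochondrial share was 65.2%, 76.9% and 85.5%.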

How the results depend on the processing

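Each group had 1 library, so no alternative left a library out. No paired analysis was possible because the groups compared share fewer than 2 replicate numbers. The cause of each shift below was not tested, except that thinning gives each cell equal weight by construction. Depth limits IFNB1 and IFNLR1, which had 1 UMI in most positive cells.

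The log2 ratio of summed lambda interferon for resistant TPF cinobufotalin over resistant TPF, -0.08 as reported, was -0.22 on thinning to 5000 UMIs, -0.029 with TMM, 0.12 without the top 10 cells and -0.33 in the cells with MALAT1 at 0.3% to 1%, a choice made after seeing the data. For resistant TPF over FaDu cinobufotalin, -0.13 as reported, it was 0.40 on thinning, -0.70 with TMM, 1.08 in the MALAT1 range, 0.10 without cells over 2 times the median depth, -0.21 with at most 10% mitochondrial UMIs and -0.21 with totals free of mitochondrial and ribosomal genes. For resistant TPF cinobufotalin over FaDu cinobufotalin, -0.21 as reported, these were 0.18, -0.73, 0.75, 0.039, -0.25 and -0.28, and 0.0080 without the top 10 cells.

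Genes at least 2-fold apart numbered 19 at a mean of 1 CPM for the resistant pair. For resistant TPF over FaDu cinobufotalin they numbered 385 in the MALAT1 range, 524 with TMM (154 higher and 370 lower) and 2727 at 1 CPM. For resistant TPF cinobufotalin over FaDu cinobufotalin they numbered 480, 700 (198 higher and 502 lower) and 2762.

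The share of lambda-positive cells in the resistant TPF cinobufotalin, resistant TPF and FaDu cinobufotalin libraries was 7.69%, 6.08% and 8.11% thinned to 5000 UMIs, 9.46%, 7.86% and 11.3% thinned to 10000, 10.6%, 9.04% and 14.0% over all barcodes, 7.68%, 7.03% and 10.1% at 2 or more UMIs and 9.76%, 9.72% and 10.5% in the MALAT1 range. It was 13.7% in FaDu cinobufotalin without cells over 2 times the median depth. Thinned to 5000 UMIs, the top 10 cells held 43.7% of lambda UMIs in resistant TPF and 29.9% in FaDu cinobufotalin. IFNL1 among cells with IFNL2 or IFNL3 was 72.2% thinned and 88.2% at 2 or more UMIs in resistant TPF cinobufotalin, 90.4% at 2 or more UMIs in resistant TPF, and 67.3% and 73.8% thinned to 5000 and 10000 in FaDu cinobufotalin.

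Genes at least 2-fold higher in cells with than in cells without lambda UMIs numbered 95 thinned, 93 in the MALAT1 range and 24 at 10 CPM in resistant TPF cinobufotalin. They numbered 216 thinned, 138 at 5 or more lambda UMIs and 41 at 10 CPM in resistant TPF. They numbered 79 thinned, 31 without cells over 2 times the median depth, 86 in the MALAT1 range and 35 at 5 or more lambda UMIs in FaDu cinobufotalin. Of 30 ratios of single genes between libraries, 20 kept their sign on thinning, 25 with TMM and 23 in the MALAT1 range.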
